A study of Rattus norvegicus with 12 samples.

Results

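The extracellular matrix genes followed here are 7 genes of secreted proteins that build or regulate scar tissue: Fn1, Postn, Lox, Sparc, Ccn2 (also called Ctgf), Spp1 and Tgfb1. They were picked by their rat Ensembl gene IDs from a list with no threshold on measured values, but with earlier results of these data known, and are 7 of the 19955 genes in the deposited table. The table gives IDs without symbols, so the pairing of each ID with its symbol comes from that list. RNA was sequenced from hearts of wild-type (WT) rats of the Sprague Dawley strain. The 3 groups had surgery without an infarct (sham), a myocardial infarction (MI), or a patch stitched to the infarct border (Patch). The labels give 4 samples per group. The columns that could be matched by name were 2 for sham, 4 for MI and 4 for Patch, and Patch columns were recognised only by the initial P. Columns named ctrl1 and ctrl2 matched no label and were not used here. Whether they hold the other 2 sham samples is not stated, so each comparison with sham rests on 2 of 4 sham samples. The labels give no age, sex, time after infarction, patch material or sampled heart region, and do not say whether each library is a separate animal, so p-values measure the spread between these libraries.

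After an infarct, fibroblasts of the injured wall become activated and secrete a provisional matrix that is later replaced by cross-linked collagen. Fibronectin (Fn1) is the adhesive protein of that first matrix, periostin (Postn) is made by activated cardiac fibroblasts, and lysyl oxidase (Lox) cross-links collagen and elastin. SPARC binds collagen and takes part in its assembly, CCN2 is a matricellular protein induced by TGF-beta and by mechanical load, and osteopontin (Spp1) is an adhesive phosphoprotein made by macrophages and other cells of the injured heart. TGF-beta 1 (Tgfb1) is the cytokine upstream of much of this program, and is secreted in a latent form that is activated outside the cell.

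Promoter sequences are shown for Ccn2, the gene whose difference between MI and Patch passed in every fit, and for Postn and Spp1, the genes with the largest differences between MI and sham. The reference table of RefSeq promoters (GRCr8) held 5 of the 7 genes, matched by symbol. It did not hold Fn1 and Lox. The 250 bases before each gene's start are printed 5′ to 3′ on the gene's strand, for Ccn2 at chr1:22624615-22624864 (minus strand), Postn at chr2:140677811-140678060 (plus strand) and Spp1 at chr14:5619805-5620054 (minus strand). Capitals mark matches on either strand to 4 motifs. GGAATG is bound by TEAD factors of the Hippo pathway. CAGAC is a short motif bound by Smad proteins, which relay TGF-beta signals. TATAAA is the TATA box. The AP-1 motif was searched as TGANTCA. No matches overlap in these windows, and a match on the opposite strand shows as the reverse complement.
Ccn2: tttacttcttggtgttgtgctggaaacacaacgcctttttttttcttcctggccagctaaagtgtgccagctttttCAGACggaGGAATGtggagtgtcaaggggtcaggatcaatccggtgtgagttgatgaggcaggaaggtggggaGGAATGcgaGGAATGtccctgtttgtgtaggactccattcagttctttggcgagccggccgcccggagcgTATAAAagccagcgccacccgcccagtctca
Postn: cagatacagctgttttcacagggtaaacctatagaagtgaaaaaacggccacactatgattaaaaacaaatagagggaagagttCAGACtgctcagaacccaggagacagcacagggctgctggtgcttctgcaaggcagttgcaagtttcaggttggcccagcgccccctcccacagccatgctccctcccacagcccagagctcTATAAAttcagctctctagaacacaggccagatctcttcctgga
Spp1: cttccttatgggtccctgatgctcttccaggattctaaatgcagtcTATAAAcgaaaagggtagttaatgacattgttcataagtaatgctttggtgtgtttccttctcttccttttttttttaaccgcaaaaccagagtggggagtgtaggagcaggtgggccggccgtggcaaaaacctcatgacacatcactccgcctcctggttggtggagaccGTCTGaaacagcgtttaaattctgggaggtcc

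The Ccn2 window held GGAATG 3 times, starting 166, 101 and 92 bases before the start, and of all 33469 promoter windows of this length 12.1% held it at least once and 0.0807% held it 3 or more times. It also held TATAAA from 31 bases before the start. Postn held TATAAA from 44 bases before the start, and in Spp1 the only TATAAA began 204 bases before it, where 12.9% of all windows held these letters. CAGAC (or its reverse complement) was found once each in Ccn2, Postn and Spp1, 3 times in Sparc and not in Tgfb1. Of all windows, 42.9% held at least 1 match and 2.54% held 3 or more. Sparc also held GGAATG once, on the opposite strand. TGANTCA was found in 6.34% of all windows and in none of the 5. These are matches of letters, with no measurement of binding.

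Recovered reads per library numbered 12181733 to 12220833 (sham), 12932419 to 14110864 (MI) and 11420710 to 12565137 (Patch). One MI library, MI2, stood apart from the other 9: it had 5474 genes at 0 where they had 2400 to 3335, and 169 genes with a single read where they had 632 to 979. Results for MI are therefore also given without it. The columns carry either small numbers (sham1, sham2, MI1, MI2) or 3-digit numbers (the other MI libraries and Patch), and what these mark is not stated. No marker of the tissue or of its cell types could be checked, because 0 IDs of the gene table used here match the IDs of the deposited one. The preset lists of pathway and cell type genes were not analysed for the same reason.

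In MI, 6 of the 7 genes rose against sham: Postn 57.2-fold, Spp1 59.5-fold, Fn1 16.5-fold, Ccn2 10.7-fold, Lox 8.39-fold and Sparc 2.98-fold. Each fold is 2 to the power of the limma difference in log2(signal + 1), where signal is the deposited count after scaling by the authors. Tgfb1 was 1.48-fold higher and did not pass (limma adjusted p 0.0569). All 7 genes had their 4 MI values above both sham values, which held for 17.1% of the 17091 genes tested. Genes called higher in MI made up 7.3% of those tested, at a Benjamini-Hochberg adjusted p under 0.05 over all of them. The median difference of the 7 genes was 3.41 on the log2 scale, and that of all genes tested was 0.012. In whole tissue, more cells that make a transcript and more transcript per cell cannot be told apart.

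**Figure D1:**
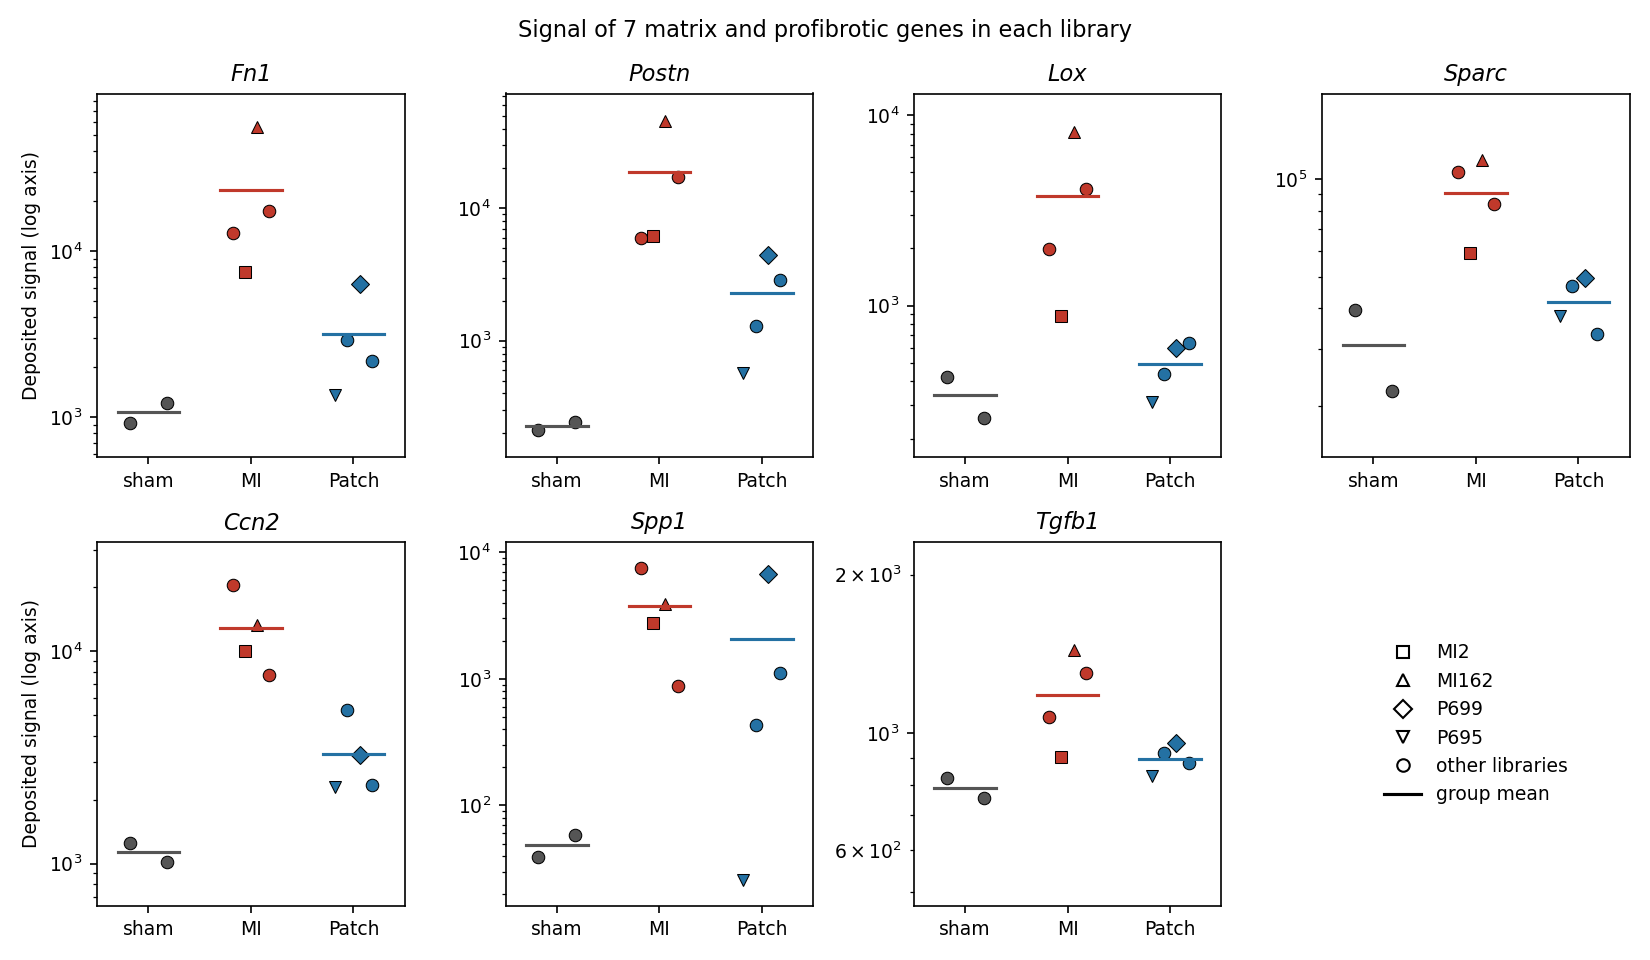
Deposited signal (log axis) of each of the 7 genes in each library, by group, with horizontal lines at the group means (n = 2, 4 and 4). Fn1, Postn, Lox, Sparc and Ccn2 have all 4 Patch values below all 4 MI values, while Spp1 in Patch spreads from 25.8 to 6716.

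Fn1 and Postn, both secreted by activated fibroblasts, were lowest in sham, intermediate in Patch and highest in MI. The Fn1 gene (ENSRNOG00000014288) had a signal of 920.4 and 1224 in sham, 12952, 7536, 55625 and 17549 in MI1, MI2, MI162 and MI165, and 1366, 2909, 6304 and 2179 in P695, P697, P699 and P985. Sham, Patch and MI occupied separate ranges, with P695 close above sham and P699 close below MI2. The limma difference was 4.05 for MI versus sham (SE 0.706, adjusted p 0.00834) and 4.46 without MI2 (adjusted p 0.00121).

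Postn (ENSRNOG00000012660) showed the same order of groups with larger gaps. Its signal was 211 and 245 in sham, 5944, 6144, 46019 and 17338 in the MI libraries in the same order, and 568, 1298, 4410.1 and 2849.8 in the Patch libraries. The 3 ranges were again separate, with P699 the Patch library nearest to MI. The limma difference from sham to MI was 5.84 (SE 0.872, adjusted p 0.00617). It was 6.20 without MI2 (limma adjusted p 0.00107) and 5.23 without MI162, the library with the highest value.

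Lox (ENSRNOG00000014426), the cross-linking enzyme, rose in MI but its Patch values lay among or near the sham values. It had 423 and 256 in sham, 1979.6, 885, 8119.9 and 4114 in MI, and 312, 438, 597 and 635 in Patch. P695 was below sham1 and above sham2, and the other 3 Patch libraries were above both. The limma difference was 3.07 for MI versus sham (SE 0.676, adjusted p 0.0164) and 3.62 without MI2 (adjusted p 0.000997).

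Sparc (ENSRNOG00000012840) changed least of the genes that passed. Its signal was 39573 and 22166 in sham, 105585, 59319, 115132 and 83965 in MI, and 37882, 46711, 49577 and 33364 in Patch. The sham libraries differed from each other 1.79-fold, and the Patch values overlapped that range while staying below MI. The limma difference of 1.57 (SE 0.475, adjusted p 0.0463) lay just past the threshold. It lost its call in 15 of 23 alternatives, and of the fits that left out 1 library only the one without MI2 kept it (1.76, limma adjusted p 0.00708).

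Ccn2 (ENSRNOG00000015036), whose promoter carries the repeated GGAATG printed earlier, had 1249 and 1016 in sham, 20384, 9971, 13260.1 and 7726 in MI, and 2284, 5262, 3247 and 2334 in Patch. The 3 groups did not overlap, and the MI libraries differed among themselves 2.64-fold, less than for Fn1 (7.38-fold) or Postn (7.74-fold). Its limma difference from sham to MI was 3.41 (SE 0.397, adjusted p 0.00369), and 3.50 without MI2 (adjusted p 0.000627).

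Spp1 (ENSRNOG00000043451) was low in sham, at 38.9 and 58.4, from 35 and 53 reads. In MI it was at 7516, 2741, 3915 and 873. The Patch libraries did not behave as a group: P695 was at 25.8, from 23 reads, P697 at 433, P985 at 1108 and P699 at 6716. P695 lay below both sham libraries, and P699 lay above 3 of the 4 MI libraries. The 95% Poisson interval of the P695 count runs from 16.4 to 38.8 in units of signal, which overlaps that of sham1 (27.1 to 54) and lies below that of sham2 (43.8 to 76.4). Such intervals cover counting error only, since PCR copies of a molecule are not marked. The limma difference from sham to MI was 5.90 (SE 1.61, adjusted p 0.0327), and 5.92 without MI2 (adjusted p 0.0300). Spp1 lost this call in 8 of 23 alternatives, with limma adjusted p 0.0644 without MI1, 0.0696 without MI162 and 0.0504 without P697, and adjusted p 0.0558 in edgeR.

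Tgfb1 (ENSRNOG00000020652) moved least. It had 822 and 754 in sham, 1075, 903, 1442 and 1302 in MI, and 829, 918, 961 and 878 in Patch. The MI and Patch ranges overlapped, because MI2 lay below P697 and P699. Its difference from sham to MI was 0.56 (SE 0.18, limma adjusted p 0.0569, 95% interval 0.17 to 0.96). Without MI2 it was 0.68 and passed (limma adjusted p 0.00720), in a fit that called 4979 of 17109 genes where the main fit called 2636.

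**Figure D2:**
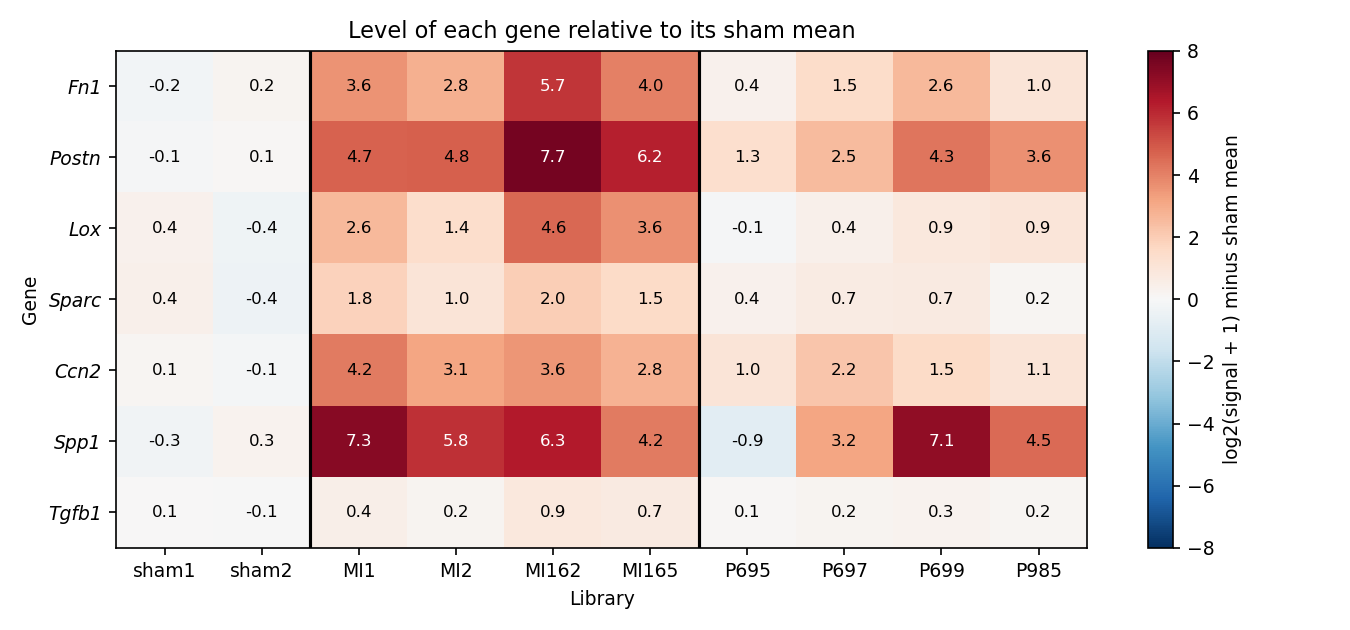
Log2(signal + 1) of each gene in each library minus the mean of its sham libraries, with vertical lines between sham, MI and Patch. MI162 and MI165 are highest for Lox (4.62 and 3.64), while Spp1 is highest in MI1 (7.27) and P699 (7.11).

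The calls for MI versus sham held only with both sham libraries in the fit. Without sham1, the limma adjusted p became 0.0951 for Fn1, 0.0733 for Postn, 0.104 for Lox, 0.138 for Sparc, 0.0567 for Ccn2 and 0.189 for Spp1. Without sham2, it became 0.0794, 0.0685, 0.141, 0.374, 0.0572 and 0.159 in the same order. In both fits the single sham library is assumed to vary like the libraries of the other groups, and the number of genes called fell from 2636 to 7 and 24. The differences of Fn1, Postn and Ccn2 moved little, to between 3.84 and 4.25, 5.73 and 5.95, and 3.27 and 3.56. Among the libraries with small numbers alone (sham1, sham2, MI1 and MI2), the differences had the same direction and only Postn passed (4.73, limma adjusted p 0.0112), where 0.012% of 16668 genes were called higher. With a block on column number in these 4 libraries, Fn1, Lox, Ccn2 and Spp1 passed too, where 302 of 16668 genes were called in limma in either direction. With 2 groups and a block on 4 libraries, each gene has little spread of its own in that fit. Its p-values rest mostly on the spread shared over all genes. Same-numbered libraries did not deviate together (r 0.023), and nothing says that these numbers mark replicates.

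Patch was set against MI to see which of these genes differ when an infarcted heart carries the patch. Fn1, Postn, Lox and Ccn2 fell, being 6.46-fold, 7.48-fold, 5.79-fold and 3.89-fold lower in Patch. These 4 of 7 genes passed, where 5.45% of all genes tested were called lower in Patch. Sparc was 2.13-fold, Tgfb1 1.30-fold and Spp1 5.34-fold lower in the fit, and these did not pass. In 5 genes (the 4 that passed and Sparc) the 4 Patch values all lay below the 4 MI values, as they did in 7.79% of all genes tested. The median difference of the 7 genes was −2.42, against 0.0023 over all genes. The comparison shares the MI libraries with MI versus sham, so the directions of the 2 comparisons are not independent.

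**Figure D3:**
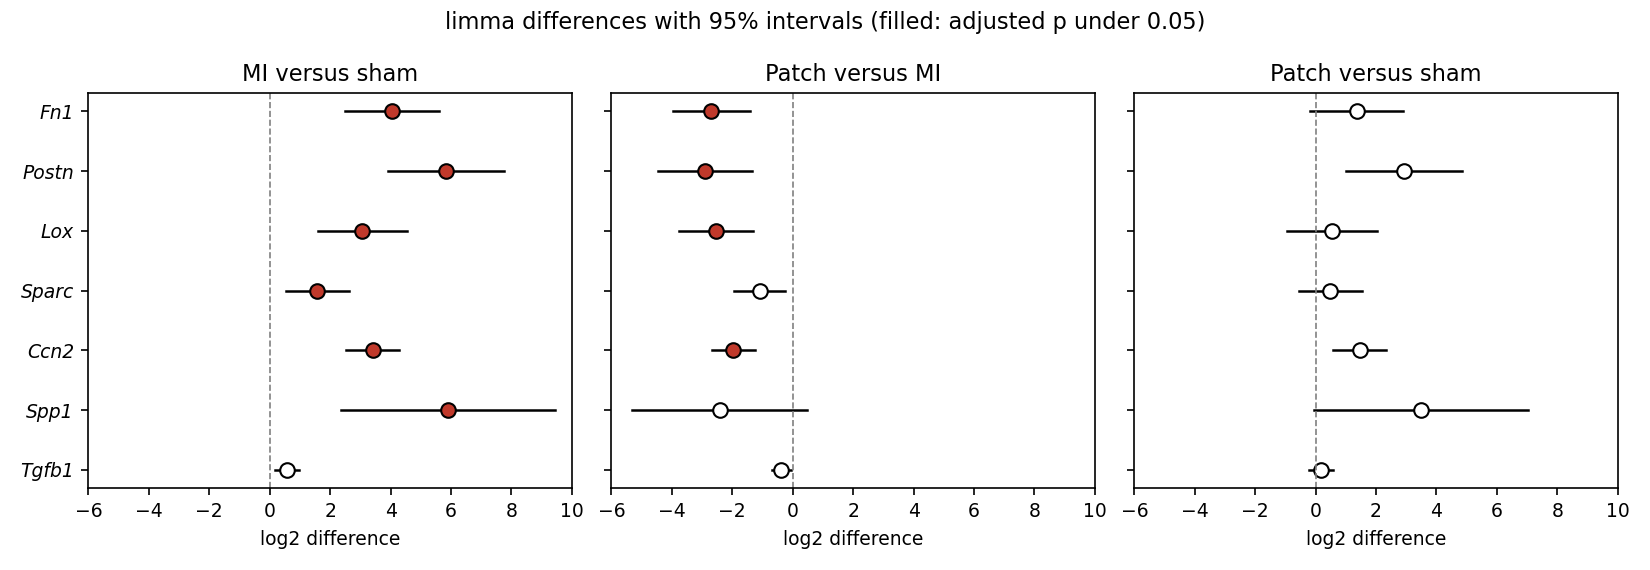
Differences in log2(signal + 1) from limma with 95% intervals for the 3 comparisons, with filled points where the adjusted p over all genes was under 0.05. The intervals of 6 genes, all but Spp1, lie on opposite sides of 0 in MI versus sham and Patch versus MI, and Spp1 has the widest interval in each panel.

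For the genes of the provisional matrix, Fn1 fell by 2.69 on the log2 scale from MI to Patch (SE 0.576, limma adjusted p 0.0184) and Postn fell by 2.90 (SE 0.712, limma adjusted p 0.0272). Lox fell by 2.53 (SE 0.552, limma adjusted p 0.0192). Without MI2 these differences were −3.10, −3.27 and −3.08 with limma adjusted p 0.00299, 0.00941 and 0.000907. The calls also depended on single Patch libraries. Without P695 the limma adjusted p was 0.0662 for Fn1, 0.0850 for Postn and 0.0704 for Lox. Without P697 it was 0.0519, 0.0746 and 0.0548, and without P985 it was 0.0603, 0.0599 and 0.0544. Postn also lost its call without MI162 (−2.30, limma adjusted p 0.0656) and without MI165 (−2.77, limma adjusted p 0.0565).

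Ccn2 fell by 1.96 (SE 0.324, limma adjusted p 0.0107), and its difference was −2.05 without MI2 (limma adjusted p 0.00256). It kept its call in all 23 alternatives run for this comparison, with adjusted p from 1.08e-06 to 0.0478, and its difference stayed between −2.24 and −1.70. Its highest Patch library was P697, at 5262, and its lowest MI library was MI165, at 7726. Ccn2 was the only one of the 7 genes with a call in every one of these fits.

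Sparc differed by −1.09 (SE 0.388, limma adjusted p 0.0836, 95% interval −1.94 to −0.24). It passed without MI2 (−1.28, limma adjusted p 0.0144) and in edgeR (adjusted p 0.0376) and DESeq2 (adjusted p 0.000401). Calls over all genes, in either direction, numbered 4821 of 17109 without MI2, 1802 of 17091 in edgeR and 3701 of 17091 in DESeq2. The main fit called 2251 of 17091. Tgfb1 differed by −0.38 (SE 0.147, limma adjusted p 0.109, 95% interval −0.70 to −0.05), and passed without MI2 (−0.50, limma adjusted p 0.0144). Spp1 differed by −2.42 (SE 1.32, limma adjusted p 0.240), and its 95% interval of −5.31 to 0.48 includes both a large fall and no change. Without MI2 it was −2.44 (limma adjusted p 0.244), without P699 −3.63 (limma adjusted p 0.0563), and without P695 it was −0.97 (limma adjusted p 0.546). On recovered reads it was −0.86 in edgeR (adjusted p 0.637), the smallest of all fits.

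**Figure D4:**
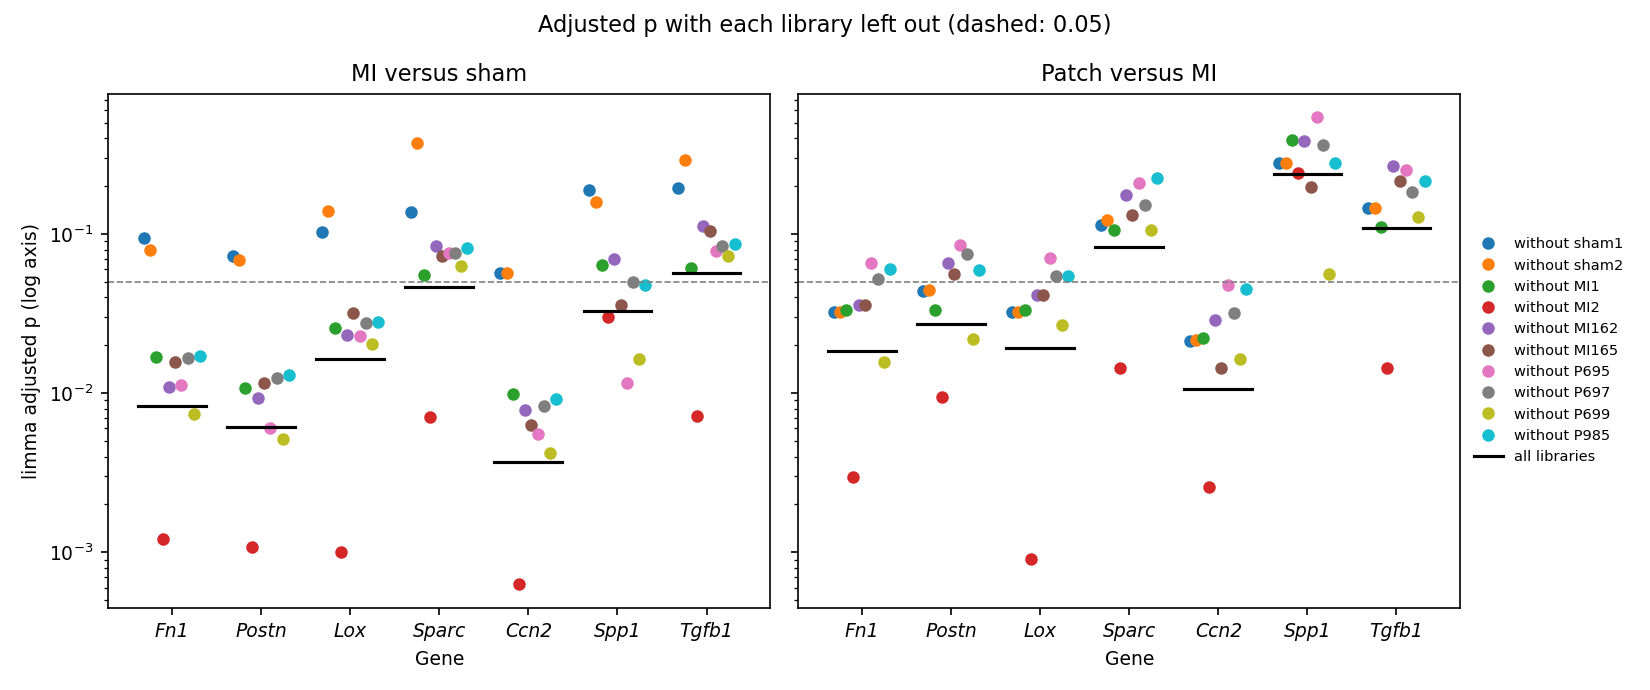
Limma adjusted p (log axis) of each gene with each library left out in turn, for MI versus sham and Patch versus MI, with black lines for the fit on all libraries and a dashed line at 0.05. Leaving out MI2 lowers the values of Fn1, Postn, Lox, Sparc, Ccn2 and Tgfb1 in both panels, leaving out a sham library puts all 7 genes above 0.05 in MI versus sham, and Ccn2 stays under the line throughout in Patch versus MI.

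Among the 3-digit libraries alone (MI162, MI165 and the 4 Patch libraries), 6 of the 7 genes fell in Patch at a limma adjusted p under 0.05, from −4.02 for Postn (adjusted p 0.00661) to −0.61 for Tgfb1 (adjusted p 0.00501). Spp1 was the exception, at −1.77 (limma adjusted p 0.489). In that fit 16.8% of 17122 genes were called lower, a larger share than with all libraries. In this subset the 2 MI libraries with the highest Fn1, Postn, Lox and Tgfb1 stand for MI.

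Patch was also compared with sham, to see what remained different from surgery without infarct. None of the 7 genes passed in limma, where 0% of 17091 genes were called and 524 had an unadjusted p under 0.05. DESeq2 called 15 genes and edgeR 0, none of them among the 7. All 7 differences were above 0 in the fit without further terms, with a median of 1.36 against 0 over all genes. In Fn1, Postn, Ccn2 and Tgfb1 the 4 Patch values lay above both sham values, which was the case for 9.18% of the genes tested.

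The fitted differences between Patch and sham had wide intervals, and no test compared them between the genes. Postn was 7.65-fold higher in Patch than in sham on the log2 scale (difference 2.94, SE 0.872, 95% interval 1.02 to 4.85), with an unadjusted limma p of 0.00619. Ccn2 was 2.74-fold higher (difference 1.46, SE 0.397, 95% interval 0.58 to 2.33), with an unadjusted limma p of 0.00368. Both had a limma adjusted p of 1.
Fn1 was 2.56-fold higher, and its interval of −0.20 to 2.91 on the log2 scale includes 0. For Lox the difference was 0.54 (95% interval −0.95 to 2.02), for Sparc 0.48 (−0.56 to 1.53) and for Tgfb1 0.18 (−0.21 to 0.58). These 3 depended on the sham library kept: without sham1 they were 0.90, 0.90 and 0.25, and without sham2 they were 0.17, 0.06 and 0.12. Spp1 differed by 3.48 with an interval of −0.07 to 7.03, and ranged from 2.27 without P699 to 4.93 without P695 and 5.43 in edgeR (adjusted p 1, unadjusted 0.0146). With 2 sham libraries these fits cannot show that the levels were equal. All sham columns have small numbers and all Patch columns have 3-digit numbers, and the 2 styles meet only in MI. With the number style as a term in limma, Fn1 (−0.30), Lox (−1.59) and Tgfb1 (−0.29) were below sham, and Postn was 0.71 and Ccn2 1.95 above it, all with adjusted p of 0.177 or more. The direction of Fn1, Lox and Tgfb1 in Patch against sham therefore depends on this term.

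The genes differed in which library was highest. MI162 had the highest MI value for 5 genes (Fn1, Postn, Lox, Sparc and Tgfb1), and MI1 for the other 2, Ccn2 and Spp1. MI165 ran second in Fn1, Postn, Lox and Tgfb1 but was the lowest MI library for Ccn2 and Spp1. Within Patch, P699 was highest for Fn1, Postn, Sparc, Spp1 and Tgfb1, P985 for Lox and P697 for Ccn2. P695 was lowest for 6 genes, all but Sparc, whose lowest Patch value was in P985.

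The spread between libraries was larger for Fn1, Postn, Lox and Spp1 in MI than for most genes. Their SD of log2(signal + 1) over the 4 MI libraries was 1.22, 1.41, 1.38 and 1.30, where the median was 0.489 over all genes tested and 0.316 over the 4799 genes whose mean signal reached 500. Ccn2 had 0.600, Sparc 0.427 and Tgfb1 0.299 in MI. Without MI2 the SDs of Fn1, Postn, Lox and Spp1 were 1.11, 1.48, 1.02 and 1.59, those of Ccn2, Sparc and Tgfb1 were 0.701, 0.235 and 0.215, and the median over all genes was 0.376. In Patch the SDs were 3.33 for Spp1, 1.30 for Postn, 0.925 for Fn1, 0.562 for Ccn2, 0.470 for Lox, 0.265 for Sparc and 0.091 for Tgfb1, against a median of 0.248 over all genes. Over the genes whose mean signal reached 500, the median was 0.145 in Patch and 0.266 in MI without MI2. Together the 7 genes took 0.319% and 0.191% of all reads in sham1 and sham2, 0.728% in MI2 to 2.16% in MI162, and 0.319% in P695 to 0.574% in P699. The ranges of MI and Patch in this share did not overlap. Sparc alone gave 47.3% of these reads in MI162 to 91.5% in sham1. The other 6 genes took 0.0264% to 0.027% of all reads in sham, 0.234% to 1.14% in MI and 0.0397% to 0.178% in Patch. The groups were thus separate without Sparc, while with Sparc included sham1 and P695 both stood at 0.319%.

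Patterns over the 10 libraries were compared as a description. The Pearson correlation of log2(signal + 1) between pairs of the 7 genes ran from 0.617 to 0.974 with a median of 0.868 over 21 pairs. These correlations span the 3 groups and so follow the group differences as well as differences between libraries, and no group has enough libraries for a correlation of its own. The most alike were Lox and Tgfb1 (0.974). For Lox, Tgfb1 ranked 14 among the 17090 other genes tested, and from 6 (without P697) to 33 (without MI1 or MI165) with 1 library left out. Fn1 and Postn followed at 0.960. Fn1 ranked 16 for Postn, and from 5 (without P985) to 47 (without MI1) with 1 library left out. Postn ranked 105 for Fn1, and from 5 (without P985) to 196 (without MI2) with 1 library left out. Sparc and Ccn2 reached 0.921, where Ccn2 ranked 266 for Sparc and Sparc ranked 155 for Ccn2. Spp1 was least like the rest, with 0.617 for Tgfb1 and 0.633 for Lox, and was closest to Postn (0.825). Postn ranked 384 for Spp1, while Spp1 ranked 1055 for Postn and 3919 for Tgfb1, so many genes outside the list were more alike than these pairs. Tgfb1 had a pattern close to that of Lox although its differences were small.

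The tested genes outside the list with the pattern nearest to the mean of the 7 were ENSRNOG00000033608 and ENSRNOG00000002746, with correlations of 0.991 and 0.989. The files do not pair these IDs with symbols. ENSRNOG00000033608 had 321 and 291 in sham, 1065, 686, 1543 and 989 in MI1, MI2, MI162 and MI165, and 370 to 545 in Patch. ENSRNOG00000002746 had 2049.6 and 1960.5 in sham, 6105 to 18085 in MI and 2588 to 4777 in Patch. In both genes the 3 groups did not overlap, which can follow from picking them by their likeness to that mean.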

How the data were processed

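RNA from 10 rat heart libraries was analysed from the table of gene values deposited by the authors. Per the labels' protocols, libraries were made from mRNA captured on poly-T beads and primed with random hexamers. No molecular identifiers are mentioned there. The submitters' processing notes name HISAT2, SAMtools, featureCounts and DESeq2 and the build rn6, without roles, versions, strand setting or the handling of reads shared by genes. Reads of overlapping or antisense genes can therefore not be told apart.

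The deposited values are a normalized signal. In each library they were whole multiples of 1 step, so dividing by it gave whole reads (within 0.001 read) for 100% of values. The 2 columns that match no label were not used.

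Genes whose mean signal reached 1 were tested with limma 3.58.1 (R 4.3.3) on log2(signal + 1), all 3 groups in 1 fit with a mean-variance trend. This scale understates changes of low genes. Calls used a Benjamini-Hochberg adjusted p under 0.05 over 17091 genes. edgeR 4.0.16 and DESeq2 1.42.0 on recovered reads, other pseudocounts, filters, scalings and left-out libraries were alternatives. The fits were tested on simulated counts. Sequences were read from RefSeq promoters (GRCr8) with Python 3.11.15, which also drew the figures (matplotlib 3.10.9). Text was to name all 7 genes and the 2 others most like their mean pattern. The genes, lists and tests were chosen with earlier results of these data known. Levels were not compared between genes, since no transcript lengths were used.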

Additional observations from a re-analysis of the deposited data

Results flagged for a closer look

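Signal and library measures were compared within the 2 groups of 4 libraries, 20 sets in all, and a library stood far from the rest of its group in 2 of them, where chance gives about 1.

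Spp1 in P699 had a signal of 6716, where the next Patch library had 1108. The gap was 0.838 of the group's range. On the log2 scale used for the tests it was 0.326 of the range, and the gap at the low end (P695) was 0.504, so neither stands out there. In P699 the other 6 genes lay between 0.29 and 4.27 above their sham mean on the log2 scale, and Spp1 lay 7.11 above it.

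In MI2, 5474 genes were at 0. The nearest MI library had 2736, and the gap was 0.891 of the range. MI2 was also the lowest MI library for Fn1, Lox, Sparc and Tgfb1. Without it, the genes called in MI versus sham went from 2636 to 4979, and the limma adjusted p of Tgfb1 from 0.0569 to 0.00720.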

How the results depend on the processing

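Directions of the 7 genes were kept in MI versus sham and Patch versus MI in all alternatives run. In Patch versus sham, Fn1 (−0.30), Lox (−1.59) and Tgfb1 (−0.29) turned with the number style as a term, the only alternative that changed a sign. The fits on libraries of 1 number style, with number style as a term, without MI2 and P699 together, and with a block on column number were chosen after seeing the data.

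Only sham1, sham2, MI1 and MI2 share column numbers, and nothing says that these are the replicate numbers of the labels. Same-numbered libraries did not deviate together (r 0.023 across 16668 genes). With the replicate block these 4 libraries gave 302 genes called in MI versus sham, and Sparc (1.42) did not pass in limma. The other 5 genes called with all libraries passed, with p-values that rest mostly on the spread shared over all genes. Where no cause is given, the cause was not tested.

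The 2636 genes called in MI versus sham became 599 with only the 2 groups compared (fewer samples), 5679 with limma sample weights, 2 with the small-number libraries alone (fewer samples), 1394 with the style term and 7 to 4979 with 1 library left out. The 2251 of Patch versus MI became 1437, 5383, 3701 in DESeq2, 5782 with the 3-digit libraries alone, 4401 with the style term, 4856 without MI2 and P699, and 209 to 4821 with 1 library left out. Patch versus sham gave 10 with sample weights, 15 in DESeq2, 133 with the style term and 0 to 2 with 1 library left out.

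In MI versus sham, calls were lost for Sparc with pseudocount 5 and without a filter (1.57 each, adjusted p 0.0538 and 0.0711 in limma), for Lox and Sparc with 2 groups (3.07 and 1.57), for Spp1 in edgeR (6.29), and with the small-number libraries for Fn1 (3.22), Lox (2.01), Sparc (1.42), Ccn2 (3.66) and Spp1 (6.54). Sparc (1.42) and Spp1 (6.54) also lost theirs with the style term. Tgfb1 gained a call with total-read scaling (0.80), quantile normalization (0.65), sample weights (0.70) and DESeq2 (0.58). In Patch versus MI, Sparc gained one with a mean signal of at least 10 (−1.09), total-read scaling (−1.27), quantile normalization (−1.43), sample weights (−1.27), edgeR (−1.12), DESeq2 (−1.12), the 3-digit libraries (−1.25) and without MI2 and P699 (−1.37). Tgfb1 gained one with total-read scaling (−0.56), sample weights (−0.53), the 3-digit libraries and the style term (−0.61 each) and without MI2 and P699 (−0.53).

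With 1 library left out, MI versus sham ranged over 3.49 to 4.46 (Fn1), 5.23 to 6.22 (Postn), 2.55 to 3.62 (Lox), 1.16 to 1.99 (Sparc), 3.16 to 3.63 (Ccn2), 5.44 to 6.47 (Spp1) and 0.46 to 0.68 (Tgfb1). Patch versus MI ranged over −3.10 to −2.14 (Fn1), −3.35 to −2.30 (Postn), −3.08 to −2.02 (Lox), −1.28 to −0.97 (Sparc) and −0.50 to −0.27 (Tgfb1). The median pair correlation stayed between 0.853 and 0.897.

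Scaling to total reads put the median of all genes at 0.24 in MI versus sham and −0.17 in Patch versus MI, where the deposited scaling had 0.012 and 0.0023, and relative to it Tgfb1 differed by 0.56 and −0.39. It raised the share of calls that were higher from 47.3% to 73.5% in MI versus sham and lowered it from 58.6% to 30.2% in Patch versus MI. The share was 73% in MI versus sham with only the 2 groups. Spp1 in P695 and sham is limited by depth, with 23 to 53 reads.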
